A study of Canis lupus familiaris with 14 samples.

Results

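The dog leukocyte antigen region, the major histocompatibility complex of the dog, lies at the start of chromosome 12. Its genes were taken here by position in CanFam3.1, as every annotated gene of chromosome 12 whose smallest start is under 3000000. This gave 145 of the 30951 genes in the count table. The 12 genes that start between 2100000 and 2600000 form the class II part, and the other 133 are called the class I and III part. Whole blood RNA was sequenced from 7 lymphoma cases (lymphoma is a cancer of lymphocytes) and from 7 samples labelled non-lymphoma and control, called controls below. The labels give no age, breed, sex, treatment or lymphoma subtype for either group, and, although the series text speaks of a non-lymphoma disease, they do not name one for the controls. They list each library as its own sample and do not state that each came from a separate dog, so the p-values cover only the spread among the libraries, which may be technical.

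Class I molecules stand on nearly all nucleated cells and show peptides from inside the cell to cytotoxic T cells. Class II molecules are pairs of an alpha and a beta chain on B cells, monocytes, dendritic cells and, in the dog, also many T cells, and they show peptides from outside the cell to helper T cells. The same region holds the peptide transporter, proteasome subunits that cut peptides for class I, and helpers that load class II. The class III stretch between them holds genes of several kinds, among them complement components and tumor necrosis factor, beside many genes with no immune role.

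The table names genes by Ensembl identifier only, and the reference table of UU_Cfam_GSD_1.0 matched 0 of 30951 identifiers, so no member could be given a symbol. Members are therefore numbered 1 to 145 by their start, and described by position and exon structure. As background, the RefSeq table of UU_Cfam_GSD_1.0 lists DLA-DRA, HLA-DRB1, DLA-DQA1, DLA-DQB1, DLA-DOB, TAP2, PSMB8, TAP1, PSMB9, DLA-DMB, DLA-DMA, BRD2 and DLA-DOA, in this order, as the named genes between BTNL2 and COL11A2. That table starts chromosome 12 with ENPP3, MED23 and ARG1, which are not histocompatibility genes. The names "class I and III part" and "class II part" are thus names for stretches of chromosome and not for functions. Below, "class II gene" means any gene that starts in the class II part, whatever its product. Marker genes of blood cell types, and regulators of antigen presentation outside the region, could not be found either, so the makeup of the blood samples was not examined.

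Total counts ranged from 9845059 to 14831589 in lymphoma and from 13522628 to 21610927 in control libraries. Lymphoma replicates 2 and 7 had the fewest detected genes, 14733 and 15946, and the lowest TMM scaling factors, 0.670 and 0.679. The other lymphoma libraries had 16649 to 18162 detected genes, and control libraries 17080 to 24649. Sample numbers in the labels have 5 digits in 7 non-lymphoma and 2 lymphoma libraries and another form in the rest. Whether this form marks a batch is not stated. Results are also given over the 5-digit libraries alone.

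Levels are given as CPM, the usual unit of counts scaled to library size, here after TMM normalization, and fold changes are log2 values of lymphoma over controls from edgeR's quasi-likelihood test, with p-values adjusted over all 12836 genes tested and a threshold of 0.05. Of 145 members, 108 passed the filter on low counts and were tested, 9 in the class II part and 99 in the class I and III part. Of those tested, 0 were called higher and 7 lower in lymphoma, 1 in the class II part and 6 in the class I and III part. Over all tested genes, 9.21% were called higher and 7.4% lower, or 7.67% and 9.2% with upper-quartile scaling factors. In bulk blood, fewer cells of a type and less RNA per cell cannot be told apart.

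The class II part held the most abundant member per length and 1 gene that was lower in lymphoma, while the other 8 tested genes were not called. Mean log2 CPM over the 9 tested genes was 6.41 ± 0.29 in lymphoma and 6.56 ± 0.33 in control libraries (n = 7 each, ± SD), a difference of -0.15 that is smaller than either SD. Libraries ranged from 6.04 to 6.81 in lymphoma and from 6.08 to 6.96 in control blood, so the groups overlapped almost fully. Within the 5-digit libraries the difference was 0.07. Together the 12 class II genes held 0.227 ± 0.0746% of counts in lymphoma and 0.248 ± 0.0655% in control libraries (n = 7 each, ± SD). The median log2 fold change of the 9 tested genes was -0.17, beside -0.05 over all tested genes.

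**Figure D1:**
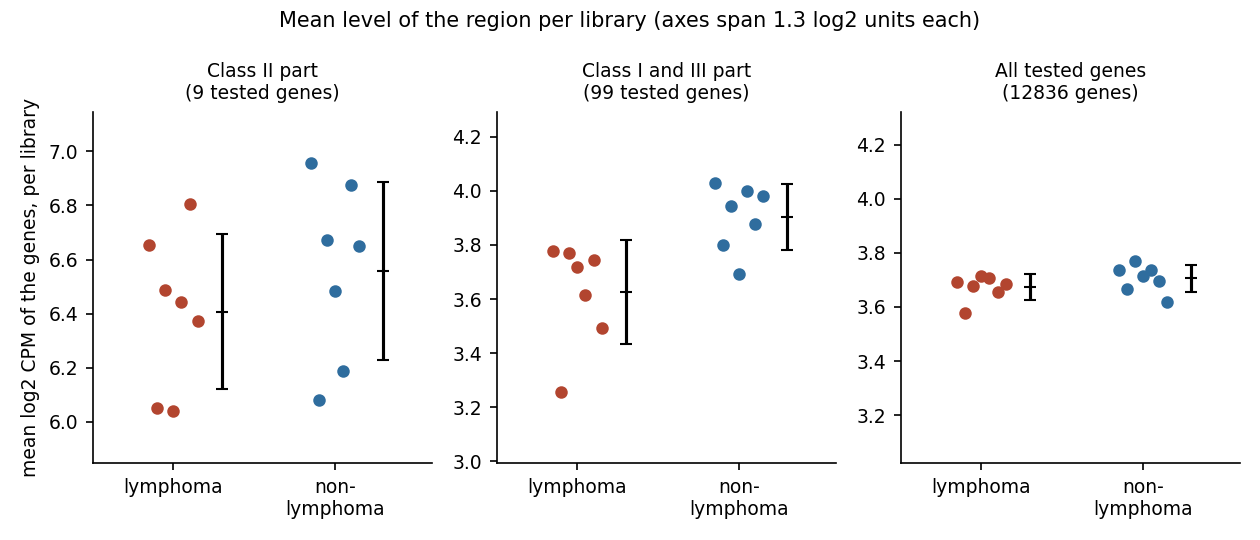
Mean log2 CPM of the tested genes in each library, for the class II part, the class I and III part and all tested genes; points are libraries, and the horizontal mark and bars are the mean ± SD of the 7 libraries of a group. Class II means overlap between the groups, whereas class I and III means run from 3.26 to 3.78 in lymphoma and from 3.69 to 4.03 in control libraries.

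Gene 110, at 2132499 to 2168975 with 16 exons, had the highest level per length of all tested members, with 519 CPM per kilobase of exon over the 14 libraries. It ranged from 657 to 1485 CPM in lymphoma, with a median of 1073, and from 640 to 1262 CPM in control blood, with a median of 882. Lymphoma replicate 1 was highest and control replicate 5 lowest, and the ranges lay over each other. The log2 fold change was 0.24 ± 0.22 SE (edgeR adjusted p = 0.452), and 2 SEs around it span -0.20 to 0.67.

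Gene 111, at 2221137 to 2227600 with 4 exons, reached 205 CPM per kilobase. It had 300 to 657 CPM in lymphoma, with a median of 479, and 264 to 546 CPM in control libraries, with a median of 320. In each of genes 110 and 111, 6 of 7 lymphoma libraries lay above the control median. The fitted log2 fold change was 0.31 ± 0.21 SE (edgeR adjusted p = 0.303), with 2 SEs spanning -0.11 to 0.73.

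Gene 112 (ENSCAFG00000000814), on the minus strand at 2244820 to 2251662 with 6 exons and 2049 exonic bases, was the only gene of the class II part called lower in lymphoma. It ranged from 29.1 to 106 CPM in lymphoma, with a median of 56.1, and from 79.2 to 163 CPM in control blood, with a median of 101. Every lymphoma library except replicate 7 lay below every control library. The gene was 1.96-fold lower in lymphoma, with a log2 fold change of -0.97 ± 0.25 (SE; adjusted p = 0.0183, edgeR). The call was kept with each of the 14 libraries left out in turn (edgeR adjusted p from 0.00792 to 0.0438). Within the 5-digit libraries the log2 fold change was -0.81 (edgeR adjusted p = 0.247). It lies 17220 bases from gene 111, which was not called, and no annotated gene overlaps it.

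**Figure D2:**
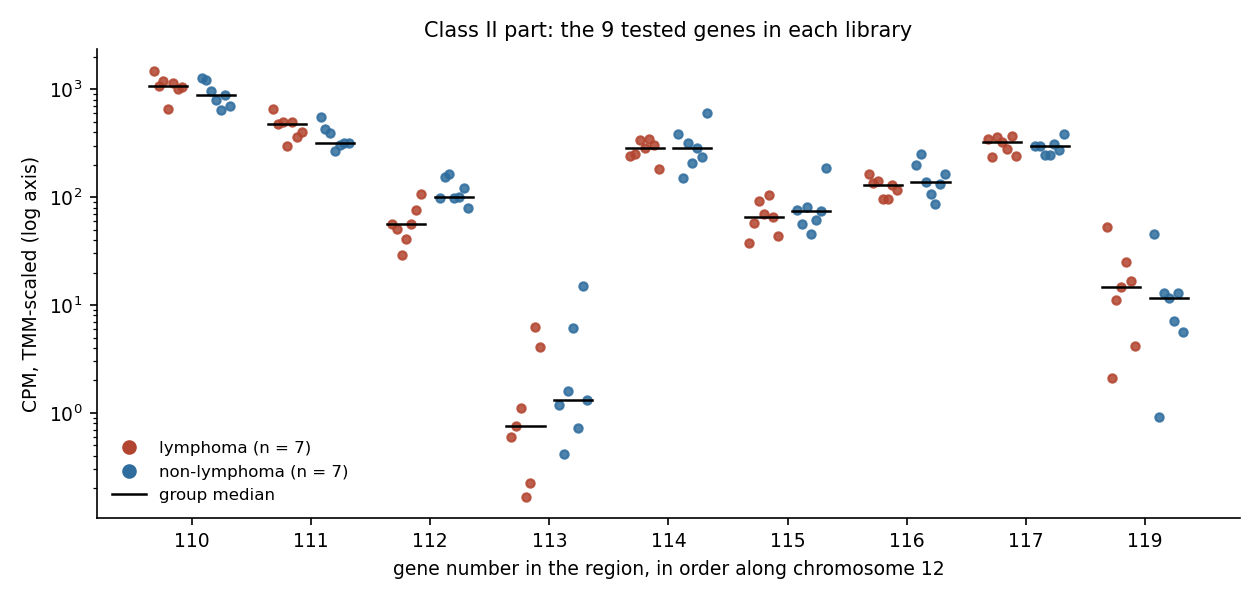
CPM of the 9 tested class II genes in each library, on a log axis; points are libraries and black lines are group medians (n = 7 per group). Gene 112 is the one in which 6 of 7 lymphoma libraries sit below all control libraries, while genes 113 and 119 spread over more than 24-fold within each group.

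Genes 114 to 117 were abundant and were not called. Gene 114, at 2378126 to 2432303 with 34 exons in 8170 exonic bases, had 182 to 348 CPM in lymphoma, with a median of 287, and 150 to 606 CPM in control libraries, with a median of 287 as well. Gene 115, at 2432505 to 2438069, had 37.3 to 104 CPM in lymphoma, with a median of 65.4, and 45.1 to 185 CPM in control blood, with a median of 74.0. Control replicate 7 was highest of all libraries in both of these neighbours. Their log2 fold changes were -0.17 ± 0.27 SE (edgeR adjusted p = 0.682) and -0.30 ± 0.30 SE (edgeR adjusted p = 0.503), and without that library they were 0.08 and 0.04, so the direction of neither held.

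Gene 116, at 2503325 to 2533990 with 12 exons, had 96.4 to 165 CPM in lymphoma, with a median of 129, and 87.1 to 252 CPM in control blood, with a median of 138 (log2 fold change -0.29 ± 0.22 SE, edgeR adjusted p = 0.362). Gene 117, at 2534034 to 2546029 with 14 exons, showed the tightest groups of the tested class II genes, with a coefficient of variation of 18.1% in lymphoma and 16.1% in control libraries. It had 233 to 367 CPM in lymphoma, with a median of 325, and 243 to 380 CPM in control blood, with a median of 299. With edgeR the log2 fold change was 0.07 ± 0.17 SE (edgeR adjusted p = 0.799), and 2 SEs span -0.26 to 0.40. Gene 118, which overlaps it, was not tested and had 19 counts in all 14 libraries together.

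Genes 113 and 119 were the most variable of the class II part, with coefficients of variation from 94.1% to 142% within a group. Gene 119, at 2563673 to 2568328, had 2.12 to 52.3 CPM in lymphoma, with a median of 14.7, and 0.911 to 45.5 CPM in control libraries, with a median of 11.5. Replicate 1 was highest and replicate 2 lowest in both groups. Its log2 fold change of 0.40 ± 0.67 (SE; adjusted p = 0.7, edgeR) turned to -0.15 without lymphoma replicate 1. Gene 113, at 2306185 to 2307866, had 2 to 84 counts in lymphoma and 6 to 276 counts in control libraries, which limits its precision. This gave a log2 fold change of -1.02 ± 0.86 (SE; adjusted p = 0.414, edgeR). Gene 109 had 0 counts in all libraries and gene 120, a single-exon gene, had 29 in all.

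By Pearson's r no pair of class II genes passed the test for moving together, and by rank 1 did, in lymphoma libraries only. Whether the groups differ in this was not tested. Correlations of log2 CPM were computed for the 36 pairs of tested class II genes in each group, 72 in all, a choice made after the values were seen. The p-values of r and of rho were adjusted separately, each over these 72, and not over both together. The points of a pair share their library and its scaling. Pearson's r of genes 110 and 111 was 0.93 in lymphoma (exact permutation p = 0.00198, adjusted p = 0.143, n = 7), and Spearman's rho was 1 (exact permutation p = 0.000397, the smallest that 7 libraries can give, adjusted p = 0.0286). In control libraries r was 0.86 (exact permutation p = 0.0143, adjusted p = 0.286, n = 7) and rho 0.82 (exact permutation p = 0.0341, adjusted p = 0.491). Without the 2 libraries farthest from the median of gene 110, r was 0.88 and 0.80. In the pairs below, too, these 2 libraries were picked by the first gene of the pair alone. Libraries extreme only in the second gene can remain.

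Genes 114 and 115, whose ends lie 202 bases apart, passed no test after adjustment. In lymphoma r was 0.87 (exact permutation p = 0.00933, adjusted p = 0.286, n = 7) and rho 0.93 (exact permutation p = 0.00675, adjusted p = 0.221). In control blood r was 0.86 (exact permutation p = 0.0159, adjusted p = 0.286, n = 7) and rho 0.89 (exact permutation p = 0.0123, adjusted p = 0.221). Without the 2 libraries farthest from the median of gene 114, r was 0.92 and 0.71. By Pearson's r, 0 of 72 pairs passed after adjustment and 5 had an exact permutation p under 0.05. The fifth was genes 110 and 116 in control libraries (r = 0.81, exact permutation p = 0.029, adjusted p = 0.417, n = 7; rho 0.75, exact permutation p = 0.0663, adjusted p = 0.596; r = 0.66 without the 2 libraries farthest from the median). By rank, genes 111 and 116 in control libraries had the same rho as genes 114 and 115 there, 0.89 (exact permutation p = 0.0123, adjusted p = 0.221, n = 7). Their r was 0.75 (exact permutation p = 0.0526, adjusted p = 0.577), and 0.51 without the 2 libraries farthest from the median. By chance, about 1 in 20 pairs would have a p under 0.05. The median r over 36 pairs was 0.04 in lymphoma and 0.05 in control libraries, and 19 of 36 pairs had an r above 0 in each group.

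**Figure D3:**
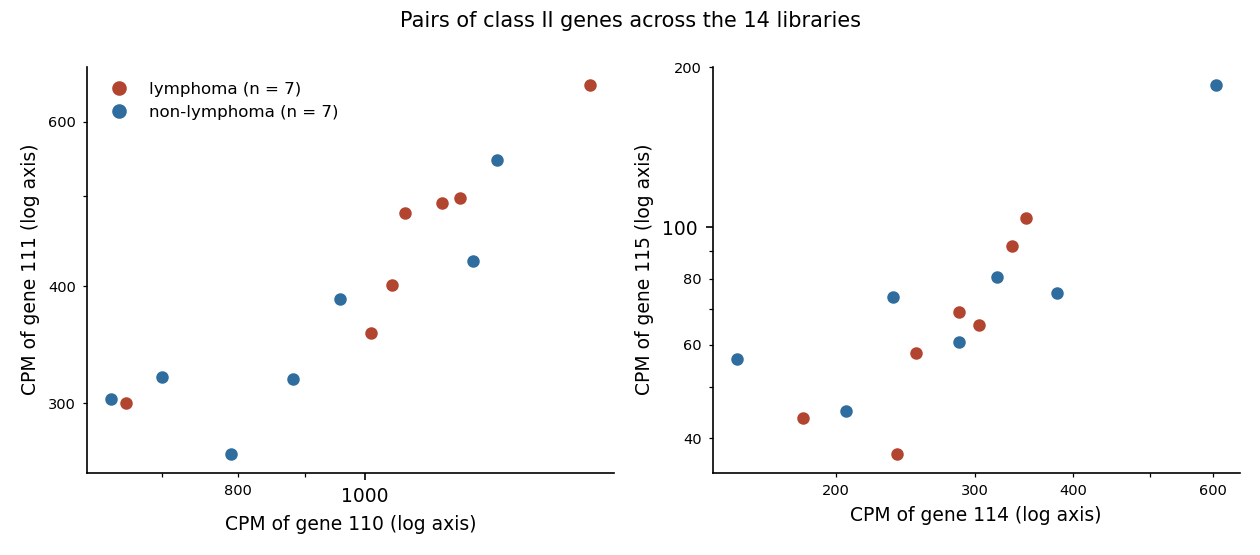
CPM of genes 110 and 111 (left) and of genes 114 and 115 (right), with 1 point per library and log axes. Within the groups r was 0.93 and 0.86 in the left plot and 0.87 and 0.86 in the right plot, in lymphoma and control libraries, none of these past adjustment.

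The class I and III part had a lower mean level in lymphoma libraries. Mean log2 CPM over its 99 tested genes was 3.63 ± 0.19 in lymphoma and 3.90 ± 0.12 in control blood (n = 7 each, ± SD), a difference of -0.28, where the mean over all tested genes differed by -0.03. Lymphoma libraries ran from 3.26 to 3.78 and control libraries from 3.69 to 4.03, and all 7 lymphoma libraries lay below the control median of 3.94. Over all tested genes, all 7 lymphoma libraries also lay below the control median, so this order alone is not particular to the region. There it was close, with a highest lymphoma mean of 3.715 beside a control median of 3.716. In the rest of chromosome 12, 0 lymphoma libraries lay below the control median. Lymphoma replicates 2 and 7, with the fewest detected genes, had the lowest means of the class I and III part, 3.26 and 3.49. Without them the difference of this part was -0.19, with 1 gene called higher and 4 lower beside 5.89% and 3.93% of all tested genes. The lymphoma libraries in that run still had at most 18162 detected genes, beside up to 24649 in control libraries. With counts thinned to the smallest total, the median log2 fold change of this part was -0.29, beside -0.04 over all tested genes. In the full counts these medians were -0.28 and -0.05. What detection or depth contributes to the difference was not tested further. Within the 5-digit libraries the mean log2 CPM difference of this part was -0.22. No p is given for this mean, since the members were chosen with earlier results known.

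Gene by gene, 0 of the 99 were called higher and 6 lower, or 6.06% lower, beside 9.21% and 7.4% of all tested genes, so the share called lower was not above that of all genes. At an unadjusted p under 0.05, edgeR had 2 higher and 24 lower, or 24.2% lower, beside 17.3% of all tested genes in each direction. After adjustment, DESeq2 called 1 higher and 11 lower, where it called 13.3% of all tested genes higher and 11.5% lower. Limma-voom called 0 higher and 6 lower, beside 8.15% and 7.34% of all tested genes. The fitted fold change was below 0 in 79 of the 99, or 79.8%, beside 52.7% of all tested genes. The median log2 fold change was -0.28, against -0.05 over all tested genes. In the rest of chromosome 12, 34 of 289 tested genes were called higher and 15 lower, with a median of 0.15. This contrast with the rest of the chromosome is given as values and was not tested.

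On both sides of the class II part most fitted fold changes were below 0, in 80.0% of tested genes before it and 78.9% after it. Of the 80 tested genes that start before it, 0 were called higher and 5 lower (6.25%), and the median log2 fold change was -0.29. Of the 19 tested genes that start after it, 0 were called higher and 1 lower (5.26%), with a median of -0.20. Both shares called lower are below the 7.4% of all tested genes. The class I and III members together held 0.424 ± 0.129% of counts in lymphoma and 0.625 ± 0.204% in control libraries (n = 7 each, ± SD). Libraries ranged from 0.245% to 0.606% in lymphoma and from 0.452% to 1.06% in control blood, so the groups overlapped.

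**Figure D4:**
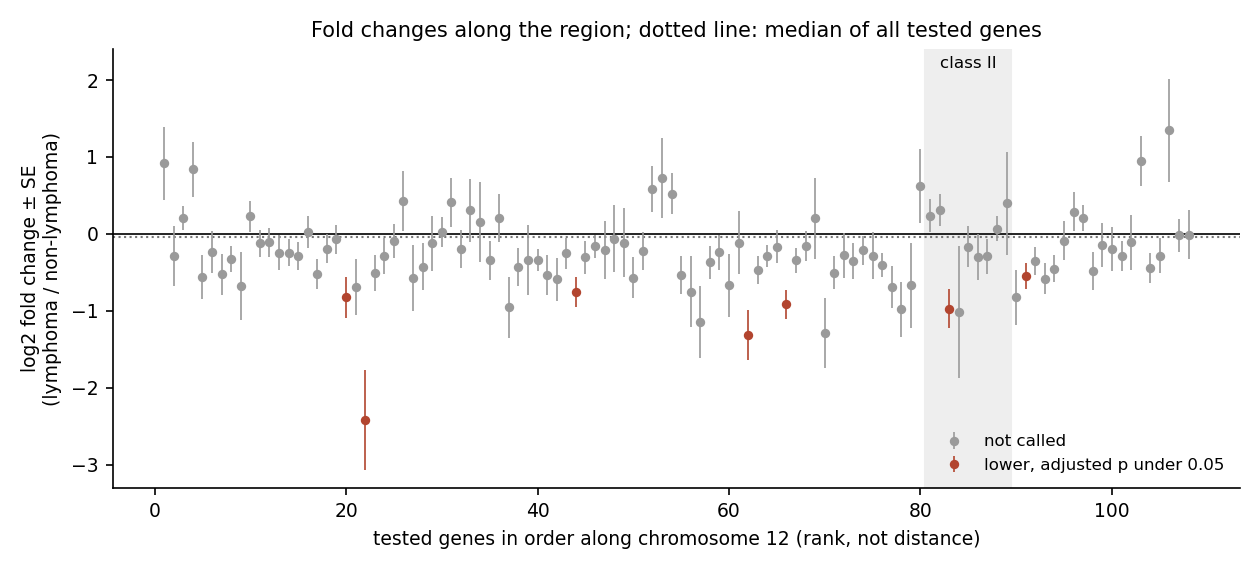
Log2 fold change ± SE of the 108 tested members in order along chromosome 12; red points have an edgeR adjusted p under 0.05, the grey band is the class II part and the dotted line is the median of all tested genes, -0.05. Most points outside the band lie below 0, and the 7 red points lie on both sides of the band and within it.

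The largest fall was that of gene 25, at 653807 to 670543 with 18 exons. It had 0.276 to 3.90 CPM in lymphoma, with a median of 1.57, and 0.491 to 17.6 CPM in control blood, with a median of 8.01. Control replicates 2 and 7 were as low as lymphoma libraries, and the other 5 were higher than all of them. The log2 fold change was -2.42 ± 0.65 SE (edgeR adjusted p = 0.0206), a 5.34-fold difference that limma-voom did not call (adjusted p = 0.0933). Counts were low, 3 to 35 in lymphoma and 7 to 400 in control libraries.

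Gene 82, at 1400172 to 1550190 with 19 exons, was 2.49-fold lower in lymphoma. It had 6.37 to 24.4 CPM in lymphoma, with a median of 13.4, and 22.1 to 82.4 CPM in control blood, with a median of 26.1. Only lymphoma replicate 6 reached the control range. Its log2 fold change was -1.31 ± 0.33 SE (edgeR adjusted p = 0.0149). The span of this gene overlaps 10 other annotated genes, 6 of them on the other strand, and the counting used no strand, so its count is uncertain.

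Gene 86 (ENSCAFG00000042328), at 1426443 to 1430754 with 2 exons, separated the groups fully. It had 3.15 to 5.97 CPM in lymphoma, with a median of 3.85, and 6.37 to 8.27 CPM in control libraries, with a median of 7.67. All 7 lymphoma libraries lay below all control libraries. The fitted log2 fold change was -0.92 ± 0.19 SE (edgeR adjusted p = 0.00673), the lowest p of the region. It lies inside the span of gene 82 and overlaps 2 annotated genes, so its count is uncertain. Overlap here is of gene spans, introns included, and reads shared between exons were not examined.

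Gene 57, at 1149548 to 1154418 with 7 exons and no overlapping gene, had 9.56 to 19.8 CPM in lymphoma, with a median of 14.2, and 17.3 to 35.0 CPM in control blood, with a median of 22.3. Of 7 lymphoma libraries, 6 lay below all control libraries. With edgeR the log2 fold change was -0.76 ± 0.20 SE (edgeR adjusted p = 0.0176), and without lymphoma replicates 2 and 7 it was -0.69 (edgeR adjusted p = 0.0548). The calls of genes 25, 57, 82 and 86 were kept with each library left out in turn.

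The remaining 2 calls changed when single libraries were left out. Gene 21, at 516032 to 528637 with 14 exons, is among the most abundant members, at 150 CPM per kilobase. It had 110 to 270 CPM in lymphoma, with a median of 161, and 185 to 481 CPM in control libraries, with a median of 231. This gave a log2 fold change of -0.82 ± 0.27 (SE; adjusted p = 0.0472, edgeR). This call did not hold in 10 of the 14 leave-one-out runs, those without lymphoma replicate 1, 2, 3, 4, 5 or 7 or control replicate 2, 4, 6 or 7 (edgeR adjusted p up to 0.0971).

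Gene 123, at 2657792 to 2663706 with 10 exons, had 26.6 to 47.5 CPM in lymphoma, with a median of 34.5, and 40.2 to 67.6 CPM in control blood, with a median of 50.7. Its log2 fold change was -0.55 ± 0.17 SE (edgeR adjusted p = 0.0354). The call was lost in 9 of 14 runs, without lymphoma replicate 1, 2, 4, 5 or 7 or control replicate 4, 5, 6 or 7 (edgeR adjusted p up to 0.0756). Genes 21 and 123 each overlap a gene on the other strand. Within the 5-digit libraries, 0 of the 7 genes were called, where 0.562% of all tested genes were called higher and 0.151% lower, and all 7 kept their direction.

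The members most abundant per length in this part were mostly not called. Gene 129, at 2712952 to 2718663 with 5 exons, had 351 CPM per kilobase, with 191 to 444 CPM in lymphoma, a median of 252, and 184 to 406 CPM in control blood, a median of 344. The fitted log2 fold change was -0.09 ± 0.25 SE (edgeR adjusted p = 0.832). Gene 48, at 1084779 to 1086112 with only 333 exonic bases, had 342 CPM per kilobase. It had 70.4 to 121 CPM in lymphoma, a median of 108, and 72.7 to 216 CPM in control libraries, a median of 104 (log2 fold change -0.34 ± 0.25 SE, edgeR adjusted p = 0.351). The groups overlapped in both genes.

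Genes 37 and 38, on opposite strands at 892388 to 1021690 and 932613 to 987561, had the highest CPM of this part, and gene 38 lies inside the span of gene 37. Gene 38 had 539 to 1822 CPM in lymphoma, with a median of 1074, and 905 to 2967 CPM in control blood, with a median of 1302. Gene 37 had 206 to 837 CPM in lymphoma, with a median of 402, and 243 to 1562 CPM in control blood, with a median of 536. Control replicate 7 was highest in both. The log2 fold changes were -0.43 ± 0.30 SE (edgeR adjusted p = 0.332) and -0.57 ± 0.42 SE (edgeR adjusted p = 0.35). Without control replicate 7 they were -0.15 and -0.25.

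Gene 67, at 1209780 to 1215229, had 152 to 273 CPM in lymphoma, a median of 164, and 126 to 369 CPM in control blood, a median of 198 (log2 fold change -0.22 ± 0.25 SE, edgeR adjusted p = 0.547). Gene 50, at 1104394 to 1106177, had 17.6 to 58.1 CPM in lymphoma, a median of 35.2, and 33.1 to 228 CPM in control blood, a median of 54.1 (log2 fold change -0.96 ± 0.40 SE, edgeR adjusted p = 0.103). Its highest value was again control replicate 7, without which the log2 fold change was -0.38. Gene 47, at 1079358 to 1081153, had 26.4 to 185 CPM in lymphoma, a median of 33.7, and 9.68 to 121 CPM in control blood, a median of 47.6. Its log2 fold change of 0.15 ± 0.52 (SE; adjusted p = 0.862, edgeR) changed direction, to -0.46 without lymphoma replicate 1 and to -0.03 without control replicate 2.

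**Figure D5:**
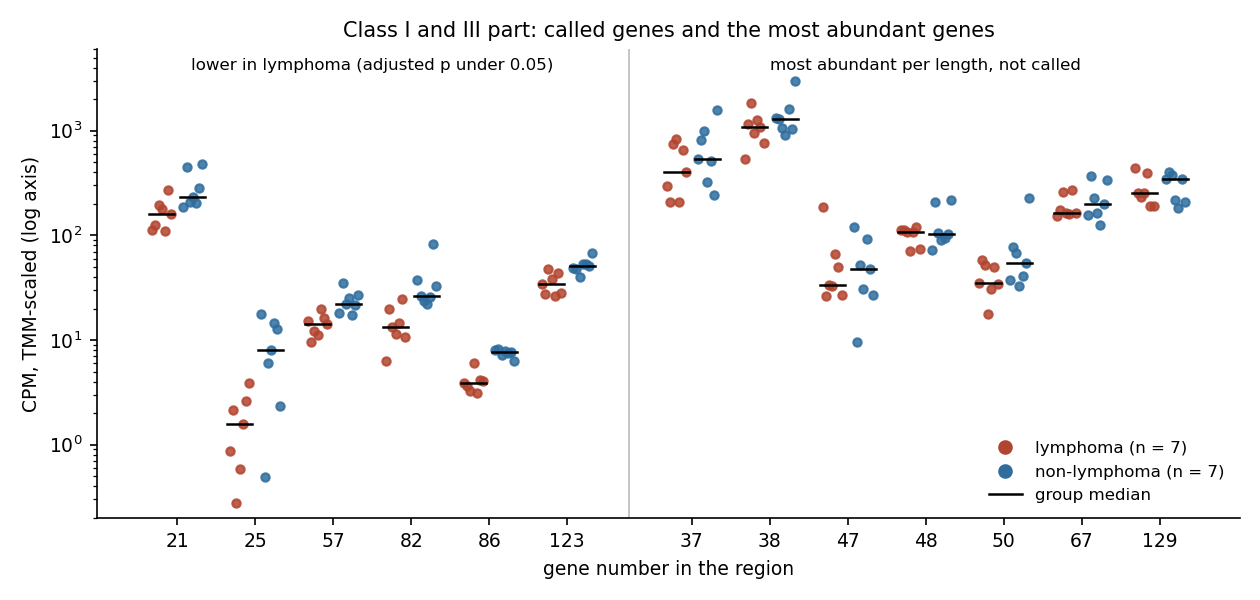
CPM of the 6 class I and III genes called lower (left) and of the 7 most abundant genes per length that were not called (right), in each library on a log axis; points are libraries and black lines are group medians (n = 7 per group). Gene 86 shows no overlap between the groups, while the abundant genes on the right overlap.

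Of the 4 members next by p, which were not called, 3 were fitted below 0 and 1 above. Gene 139, at 2808705 to 2821217 with 9 exons, was the nearest to a rise. It had 4.23 to 20.4 CPM in lymphoma, with a median of 9.03, and 4.0 to 10.1 CPM in control libraries, with a median of 5.63. With edgeR the log2 fold change was 0.95 ± 0.33 SE (edgeR adjusted p = 0.0565), it was called by DESeq2 (adjusted p = 0.0242) and by edgeR when lymphoma replicate 6 or 7 or control replicate 3 was left out (edgeR adjusted p from 0.0197). Gene 126, at 2671578 to 2675488, had 11.99 to 23.4 CPM in lymphoma, with a median of 21.3, and 18.5 to 39.3 CPM in control blood, with a median of 29.1. It was fitted at -0.58 ± 0.20 SE (edgeR adjusted p = 0.0595) on the log2 scale. Gene 92, at 1542789 to 1548964, had 0 to 0.829 CPM in lymphoma, with a median of 0.371, and 0.679 to 1.46 CPM in control blood, with a median of 0.911, or -1.29 ± 0.46 SE (edgeR adjusted p = 0.0615) on the log2 scale. Gene 100, at 1587918 to 1607760, had 0.519 to 2.03 CPM in lymphoma, with a median of 0.910, and 1.72 to 3.82 CPM in control blood, with a median of 2.41, or -0.98 ± 0.36 SE (edgeR adjusted p = 0.0686) on the log2 scale. In these last 3 genes all 7 lymphoma libraries lay below the control median. DESeq2 also called genes 126, 92 and 100 lower (adjusted p = 0.0351, 0.0292 and 0.0349), where it called 11.5% of all tested genes lower. Limma-voom called gene 92 (adjusted p = 0.0404). Without lymphoma replicate 3, edgeR called genes 92 and 100 (edgeR adjusted p = 0.0364 and 0.0479). It called gene 126 without control replicate 3 or 4 (edgeR adjusted p = 0.0451 and 0.0383).

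Of the 37 members not tested, 34 were in the class I and III part, each with at most 223 counts over all libraries. The one with 223 was gene 89, at 1453260 to 1509749, with 1 to 7 counts in lymphoma and 6 to 44 in control libraries. Without a filter on low counts it was called lower (log2 fold change -2.20, edgeR adjusted p = 0.013), in a run that called 3.03% of genes higher and 3.95% lower. It was named after its values were seen. Of the 3 untested class II genes, none had more than 29 counts.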

How the data were processed

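The authors deposited 1 table of raw counts per gene. Per the file headers, read pairs were assigned to exons and summed by gene with featureCounts 2.0.1 and the CanFam3.1 annotation of Ensembl release 103, ignoring strand and leaving multimapping and ambiguous reads at the defaults. HISAT2 2.2.1 and DESeq2 are also named, per the submitters' processing notes. Histocompatibility genes have close copies and variable alleles, so their counts are uncertain to an extent not examined here.

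Members and lists were chosen with earlier results of these data known. All 14 libraries were fitted over the whole table with edgeR 4.0.16 in R 4.3.3 (TMM, filterByExpr, quasi-likelihood F test, group as the only term, Benjamini-Hochberg adjustment). The common biological coefficient of variation was 41.5%. The SE of a log2 fold change is its size over the root of its F value. Mean log2 CPM used a prior count of 2, and CPM per kilobase divides by annotated exonic bases. On simulated counts for this comparison, with 13188 genes tested, the test recovered 24 of 100 changes of size 1 and 99 of 100 of size 2 (log2), with 3 false calls. Every simulated gene had the same dispersion, and changes were placed only in genes above a minimum level. Recovery and false calls in the real counts may therefore differ. No 2 libraries of a group agreed within sampling noise (smallest chi-square per degree of freedom 52.9).

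Genes named are the 8 most abundant per length in each part, called genes (up to 10 in the class II part; up to 10 rises and 10 falls with an average log2 CPM of at least 1 elsewhere), and the 4 next by p in the class I and III part. Lists of cell type markers and of antigen presentation genes outside the region could not be matched to identifiers. Alternatives used DESeq2 1.42.0, limma 3.58.1, other scalings, filters and subsets. Permutation tests went through all orders of the libraries with numpy 2.4.6 in Python 3.11.15. Scipy 1.17.1 gave the ranks and the adjustment of their p-values. No member sequence could be tied to a reference entry.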

Additional observations from a re-analysis of the deposited data

Results flagged for a closer look

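In 3 of 54 groups of 7 libraries, a single library stood apart by Dixon's ratio (gap over range, in log2 CPM, critical value 0.568). About 2.7 such groups, 1 in 20, would arise by chance. Control replicate 6 was highest in gene 82, at 6.37 against 4.48 to 5.23 in the other 6 (ratio 0.60). Control replicate 7 was highest in gene 115, at 7.53 against 5.50 to 6.33 (ratio 0.589). Lymphoma replicate 4 was highest in gene 86, at 2.61 against 1.72 to 2.10 (ratio 0.57), and still lay below every control library in CPM.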

How the results depend on the processing

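The class II gene called lower stayed the only call of its part under all alternatives except 2. It was lost within the 5-digit libraries (0 called) and with the replicate block (0 called; gene 112 log2 fold change -1.03, edgeR adjusted p = 0.0677). Class II counts with 1 library left out were 1 lower in each run and 0 higher. In the class I and III part, 4 to 10 genes were called lower and 0 to 1 higher with 1 library left out, with 10 lower without lymphoma replicate 3 (of 100 tested, beside 7.59% of all genes tested in that run). Counts of lower genes there were 0 within the 5-digit libraries, 2 with the replicate block (2.02%), 11 by DESeq2 (11.1%), 15 at an adjusted p under 0.1 (15.2%), and 2 among members that overlap no other gene. Of all tested genes, 0.151%, 2.22%, 11.5% and 13.2% were lower in the first 4 of these, so these 4 counts moved with those of the whole table. Of the 99 tested members of this part, 44 overlap another gene. The share called among all genes that overlap no other was not computed, so the last count cannot be set beside one. The higher count was 1 with counts thinned to the smallest total, by DESeq2, at an adjusted p under 0.1, and, in an alternative chosen after seeing the data, without the 2 libraries with the fewest detected genes, where 4 were lower and 3 of the 6 calls remained. The mean difference ranged from -0.23 to -0.07 (class II) and from -0.31 to -0.22 (class I and III) with 1 library left out. Same-numbered libraries had correlations of deviations from -0.34 to 0.35, and 1 of 7 lymphoma libraries correlated best with its own number. This does not settle whether replicate numbers pair libraries, since a pairing need not raise these correlations.

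Of 624 fold changes of 25 named genes under alternatives, 563 kept direction and side of the threshold, 37 lost a call, 15 gained one and 9 reversed, none of these a called gene. Gene 47 turned to -0.46 without lymphoma replicate 1 and -0.03 without control replicate 2 (leave-one-out range -0.46 to 0.48). Gene 119 turned to -0.15 without lymphoma replicate 1 (range -0.15 to 1.10). Gene 114 turned to 0.078 without control replicate 7 (range -0.29 to 0.078) and to 0.058 over the 5-digit libraries. Gene 115 turned to 0.038 without control replicate 7 (range -0.43 to 0.038) and to 0.028 over the 5-digit libraries. Gene 129 turned to 0.0031 without control replicate 2 (range -0.23 to 0.0031) and to 0.015 without the 2 libraries with the fewest detected genes. The cause of these changes was not tested. Of 18 named genes that were not called, 14 had a log2 fold change that moved by over 1.5 times or turned when 1 library was left out, and of the 7 called genes 0 did. A fold change near 0, as in gene 117 (0.07 ± 0.17 SE), moves by 1.5 times with a small shift. Called genes were selected for fold changes large beside their SE. These counts therefore do not compare how stable called and uncalled genes are. Low counts limit genes 25, 92 and 113.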

Other observations

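Over the 108 tested members, the highest library of the control group was replicate 7 for 29 genes and replicate 1 for 28, but replicate 4 for 3. The lowest library of the lymphoma group was replicate 2 for 38 genes and replicate 3 for 8. Genes 47 and 119, in different parts of the region, were both highest in replicate 1 and lowest in replicate 2 of each group. Other members, among them genes 19 and 26, had the same extremes, so this is not particular to these genes. Lymphoma replicate 1 was highest of its group for 33 members, and control replicate 2 lowest for 27. Whether same-numbered libraries are paired was not settled, and genes 47 and 119 were singled out after their values were seen.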
